A study of Mus musculus with 42 samples.

Results

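The angiopoietin and Tie receptor genes comprised 8 genes, chosen by symbol from a list: the angiopoietins Angpt1, Angpt2 and Angpt4, the receptors Tek and Tie1, and the angiopoietin-like genes Angptl1, Angptl2 and Angptl4. They were 8 of 27178 genes in the CD1 RNA table and 8 of 35972 in the C57BL/6 RNA table, and all 8 passed the filter of a mean of at least 1 read in both tables. In C57BL/6 the low level of Angpt4 at day 56 was part of the reason for the choice, so its RNA values there are given as a description with no test.

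The study sorted collagen-producing mesenchyme from mouse lung and measured RNA by RNA-seq and open chromatin by ATAC-seq, a transposase assay that marks accessible DNA. In the CD1 strain, cells carrying the Col1a1-GFP reporter, which marks cells by Col1a1 promoter activity, were grown for 5 days in 10% serum on collagen-coated silicone gels of 0.2 kPa (soft) or 32 kPa (stiff), or were sorted directly from sham lungs; each of these 3 groups had 3 libraries per assay. In C57BL/6, mesenchyme traced by its Col1a2 lineage came from lungs 14 or 56 days after bleomycin, a drug that injures and scars the lung, or from sham lungs, with 4 libraries per assay in each of the 3 groups. All lungs were digested for 45 min and the sort excluded CD45+ leukocytes and EpCAM+ epithelium; CD31+ endothelium was excluded as well, but that step is stated for the Col1a1-GFP cells alone. The labels state neither ages nor the bleomycin dose. They also leave it unsaid whether each library is its own animal or culture, and the p-values therefore reflect library-to-library spread alone, which may be technical.

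Angiopoietins are secreted ligands of the receptor tyrosine kinase TIE2, which Tek encodes and which is best known on endothelial cells. ANGPT1, made largely by mesenchymal and perivascular cells, activates TIE2 and holds vessels quiescent; ANGPT2 acts on the same receptor as a weak or context-dependent agonist that can oppose ANGPT1; ANGPT4 is a less studied ligand. TIE1 binds no angiopoietin by itself with high affinity and modulates TIE2 in a complex. The angiopoietin-like proteins share the fold but do not bind TIE2: ANGPTL4 inhibits lipoprotein lipase, ANGPTL2 is a secreted factor linked to inflammation and tissue remodelling, and ANGPTL1 is a little-studied secreted relative.

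The chromatin results turn on the regions below, shown because each is the largest gain at day 14 among the regions that the authors' deposited table assigns to that gene, where that gain was at least 2 log2 units; the Angpt4 promoter is added because the authors' deposited table lists a loss across it. Coordinates are mm10, 1-based, plus strand. The regions lie at chr15:42370127-42370373 (intergenic, Angpt1), chr8:18699115-18699414 (intron 5 of Angpt2), chr2:151914108-151914407 (intron 1 of Angpt4, the central 300 bases of the region), chr2:33177043-33177235 (upstream of Angptl2, annotated as an intron, within the span of Ralgps1) and chr4:118505680-118505871 (intergenic, upstream of Tie1). The Angpt4 promoter, at chr2:151910957-151911256, is from RefSeq (GRCm38.p6). Capitals mark matches, on either strand, to AP-1 (TGANTCA), RUNX (TGTGGT) or TEAD (GGAATG), the core motifs of 3 transcription factor families.
Angpt1 region: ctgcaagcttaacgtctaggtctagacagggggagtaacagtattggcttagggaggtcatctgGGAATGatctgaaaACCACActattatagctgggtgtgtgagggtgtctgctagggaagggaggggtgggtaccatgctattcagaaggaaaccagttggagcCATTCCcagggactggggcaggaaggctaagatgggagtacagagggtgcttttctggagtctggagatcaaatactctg
Angpt2 region: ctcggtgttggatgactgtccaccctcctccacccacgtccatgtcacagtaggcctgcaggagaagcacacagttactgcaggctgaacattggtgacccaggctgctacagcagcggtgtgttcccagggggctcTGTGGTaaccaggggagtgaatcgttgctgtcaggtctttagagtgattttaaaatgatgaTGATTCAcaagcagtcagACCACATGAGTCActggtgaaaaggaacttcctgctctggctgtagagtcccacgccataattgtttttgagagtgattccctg
Angpt4 region: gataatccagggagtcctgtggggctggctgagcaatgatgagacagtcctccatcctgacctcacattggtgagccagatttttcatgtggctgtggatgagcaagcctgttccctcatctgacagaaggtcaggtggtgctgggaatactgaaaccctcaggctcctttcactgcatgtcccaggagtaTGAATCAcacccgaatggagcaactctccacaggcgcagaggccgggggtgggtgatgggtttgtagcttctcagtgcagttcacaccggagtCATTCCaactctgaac
Angptl2 region: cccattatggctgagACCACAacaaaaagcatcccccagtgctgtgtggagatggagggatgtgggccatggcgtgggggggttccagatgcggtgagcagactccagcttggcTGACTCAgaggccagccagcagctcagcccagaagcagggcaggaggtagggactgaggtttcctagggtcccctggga
Tie1 region: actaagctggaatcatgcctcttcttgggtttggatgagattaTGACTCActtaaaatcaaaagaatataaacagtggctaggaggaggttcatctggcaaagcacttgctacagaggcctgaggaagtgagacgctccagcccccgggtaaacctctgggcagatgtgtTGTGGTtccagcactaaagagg
Angpt4 promoter: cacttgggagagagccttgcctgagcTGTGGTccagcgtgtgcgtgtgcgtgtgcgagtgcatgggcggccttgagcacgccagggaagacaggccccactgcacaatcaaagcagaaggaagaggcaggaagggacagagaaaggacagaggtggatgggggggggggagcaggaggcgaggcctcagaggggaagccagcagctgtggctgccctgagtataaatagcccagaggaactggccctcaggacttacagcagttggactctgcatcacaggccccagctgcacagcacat

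The AP-1 letters were present in 4 of the 5 regions and absent from the Angpt1 region, which held 2 TEAD matches and 1 RUNX match. In the Angpt2 region 1 of the 2 AP-1 matches directly followed a RUNX match, so that both are printed as a single capital run. For scale, windows of 300 bases centred on all 25518 regions in the authors' deposited table for day 14 held AP-1 in 38.8%, RUNX in 31.4% and TEAD in 23.7%. These windows pool regions more and less accessible at day 14, whereas the printed regions were picked for gain. Some printed regions are also shorter. At 192 bases, the length of the Tie1 region, 33.8% of windows held AP-1. The Angpt4 promoter held 1 RUNX match, which 16.8% of 32851 RefSeq promoters of the same length also held. These matches describe letters, not binding.

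Libraries held 35858180 to 69524944 reads on genes in the CD1 table and 14288605 to 51288435 in the C57BL/6 table. In C57BL/6, 4 libraries (sham replicates 1 and 2, day 56 replicates 2 and 3) had 16563 to 17561 genes detected against 19384 to 21381 in the others. The fibroblast marker Pdgfra stood at 30.0 to 35.4 RPKM (reads per kb of exon, scaled to library size) on 0.2 kPa, 24.2 to 34.0 on 32 kPa and 119 to 141 in CD1 sham cells, while the endothelial marker Pecam1 reached at most 2.58 RPKM in CD1 sham cells and 3.00 in C57BL/6 sham cells. These are bulk samples, so fewer cells of a type and less RNA per cell cannot be told apart.

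After bleomycin, the ligands Angpt1 and Angpt2, the receptor gene Tek and Angptl1 fell at day 14, and Angptl4 rose. By day 56 Angpt1, Angpt2 and Angptl1 were higher than at day 14 and Angptl4 was lower, whereas the Angpt4 libraries of the 2 times overlapped, below sham. Values are reads rescaled by median of ratios within a table, and differences are on the log2(value + 1) scale with their standard error (SE) and the adjusted p of limma with Benjamini-Hochberg correction over all genes.

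**Figure D1:**
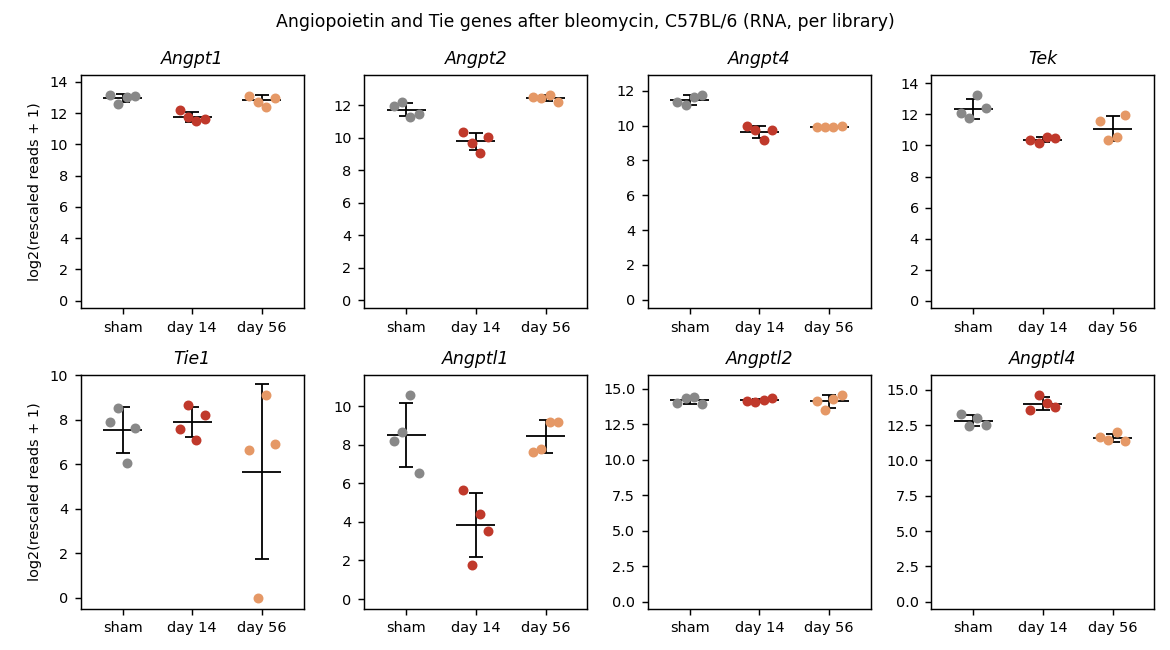
Rescaled RNA reads of the 8 genes in each C57BL/6 library, as log2(reads + 1), for sham, day 14 and day 56; points are libraries, and lines with bars are means and SD (n = 4). Angpt1, Angpt2 and Angptl1 dip at day 14, Angptl4 peaks there, Angpt4 sits between 952 and 1014 reads at day 56, and Tie1 in day 56 replicate 2 is at 0.

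Angpt1 stood at 9124, 6122, 8525 and 8783 reads in sham cells, at 4779, 3396, 2944 and 3101 at day 14, and at 8944, 6837, 5450 and 8122 at day 56. All 4 day 14 libraries lay below every sham and every day 56 library, and the day 56 and sham libraries overlapped. The difference was -1.20 ± 0.19 at day 14 against sham (adjusted p = 0.000832), 1.05 ± 0.19 at day 56 against day 14 (adjusted p = 0.00262) and -0.16 ± 0.19 at day 56 against sham (adjusted p = 0.919).

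Angpt2 moved the same way with a larger swing. Its reads were 3844, 4709, 2502 and 2823 in sham cells, 1277, 828, 537 and 1030 at day 14, and 5697, 5611, 6256 and 4564 at day 56. Day 14 libraries were again below all others, and 3 of 4 day 56 libraries exceeded the highest sham library. The drop at day 14 was -1.94 ± 0.25 (adjusted p = 0.000156), and day 56 was 6.03-fold above day 14 by group means (2.65 ± 0.25, adjusted p = 2.05e-05). Against sham, day 56 differed by 0.71 ± 0.25 (adjusted p = 0.735), which did not pass the threshold.

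Angpt4 had 2638, 2295, 3158 and 3469 reads in sham cells, 1014, 847, 574 and 860 at day 14, and 952, 986, 964 and 1014 at day 56. Both bleomycin groups lay below every sham library and overlapped each other. The means were 979 ± 27.0 at day 56 and 824 ± 183 at day 14 against 2890 ± 524 in sham cells (SD, n = 4 each), that is, 2.95-fold and 3.51-fold below sham. Of the angiopoietin genes it was the 1 whose day 56 libraries all stayed below sham, and this pattern chose it. Among the 8 genes, Angptl4 also had every day 56 library below every sham library.

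Of the receptors, Tek had 4294, 3443, 9725 and 5544 reads in sham cells, 1311, 1134, 1490 and 1440 at day 14, and 3040, 1292, 1463 and 3931 at day 56. All day 14 libraries were below all sham libraries, and the day 56 libraries split, with replicates 2 and 3 at the day 14 level. Tek fell by 1.99 ± 0.35 at day 14 against sham (adjusted p = 0.0016). It did not pass at day 56 against sham (-1.28 ± 0.35, adjusted p = 0.58) or against day 14 (0.71 ± 0.35, adjusted p = 0.216). The 2 low day 56 libraries are those with fewer genes detected; with the 4 such libraries left out, the difference of day 56 from day 14 was 1.37 with an adjusted p of 0.00538, against 0.00538 to 0.453 over the 20 alternatives.

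Tie1 was far lower and more variable. It had 239, 369, 66.1 and 199.9 rescaled reads in sham cells, 192, 403, 137 and 294 at day 14, and 98.0, 0, 553 and 121 at day 56. The groups overlapped throughout, and no comparison passed: 0.35 ± 1.38 at day 14 against sham (adjusted p = 0.908) and -1.87 ± 1.38 at day 56 against sham (adjusted p = 0.877). Day 56 replicate 2 had 0 reads of Tie1, which allows up to 0.21 CPM (3 counts; counting error only).

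Among the angiopoietin-like genes, Angptl4 rose at day 14 and was lower at day 56 than at day 14. It had 9995, 5637, 8067 and 5919 reads in sham cells, 12349, 24937, 17625 and 14354 at day 14, and 3232, 2760, 4114 and 2682 at day 56. The 3 groups did not overlap at all. The rise at day 14 was 1.21 ± 0.23 (adjusted p = 0.00282), and day 56 was 5.42-fold below day 14 by group means (-2.41 ± 0.23, adjusted p = 2.27e-05). Day 56 against sham gave -1.19 ± 0.23, which missed the threshold in limma (adjusted p = 0.174) and passed it in DESeq2 (adjusted p = 0.00227), the 1 call among 20 alternatives, whose adjusted p reached 1.

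Angptl1 was low and uneven in sham cells, at 286, 408, 1509 and 91.1 reads. It dropped to 50.1, 2.40, 20.3 and 10.5 reads at day 14 and stood at 194, 219, 574 and 571 at day 56. No day 14 library reached any library of the other groups. The day 14 difference was -4.64 ± 0.86 (adjusted p = 0.00221), the largest in log2 terms among the tested members. It was -3.94 without sham replicate 3 or without day 14 replicate 2, -5.29 without sham replicate 4 and -5.25 without day 14 replicate 1. Day 56 exceeded day 14 by 4.58 ± 0.86 (adjusted p = 0.0028), with 3.89 without day 14 replicate 2 and 5.19 without day 14 replicate 1. All of these passed the threshold. Against sham, day 56 differed by -0.05 ± 0.86 (adjusted p = 1). An unclassified transcript on the opposite strand, Gm37802, shares 465 of its 2841 exon bases, and the labels do not state whether counting used strand, so reads there cannot be assigned to one or the other.

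Angptl2 did not separate the groups. It had 16339 to 22311 reads in sham cells, 17405 to 20605 at day 14 and 11685 to 23689 at day 56. The ranges overlapped, and no comparison passed (-0.01 ± 0.19 at day 14 against sham, adjusted p = 0.989; -0.08 ± 0.19 at day 56 against sham, adjusted p = 0.97).

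Of the 7 members tested in C57BL/6, 4 were lower and 1 was higher at day 14 against sham, where 6.35% of 21134 genes were called lower and 9.54% higher; 15.9% were called in either direction. The groups did not overlap for 5 of these 7 members and for 26.1% of all genes. The median difference was -1.20 over the 7 members and 0.05 over all genes. Limma called 0 of 7 at day 56 against sham (3 at an unadjusted p under 0.05, and 1 in DESeq2), where the share over all genes was 0.00473%. Nothing is read from that share, because the choice of members used this contrast. Day 56 and sham did not overlap for 1 of the 7, Angptl4, and for 2.56% of all genes. DESeq2 called 80 genes there, edgeR called 1, and 1330 had an unadjusted p under 0.05 in limma. Between day 56 and day 14, 3 members were higher and 1 was lower at day 56, where 5.7% of genes were called higher and 8.48% lower; without rescaling the deposited values, that split over all genes was 777 higher and 3035 lower rather than 1204 and 1792. In either direction 14.2% were called, and day 56 lay clear of day 14 for 4 of the 7 members and for 20.2% of all genes. The comparisons at day 14 and day 56 share their sham or day 14 libraries. The groups also differed in Xist, the RNA of the inactive X chromosome in female cells. Xist stood at 33.7 CPM or more in 1 sham library, in 2 libraries at day 14 and in all 4 at day 56, and the Y-linked gene Ddx3y was present in the other 3, 2 and 0, so the mix of sexes was unequal and day 56 held no library with Ddx3y. With Xist presence as a term, the 5 calls at day 14 against sham and the 4 at day 56 against day 14 among the members stayed past the threshold, and Angpt2 at day 56 against sham was 0.30 (adjusted p = 1).

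**Figure D2:**
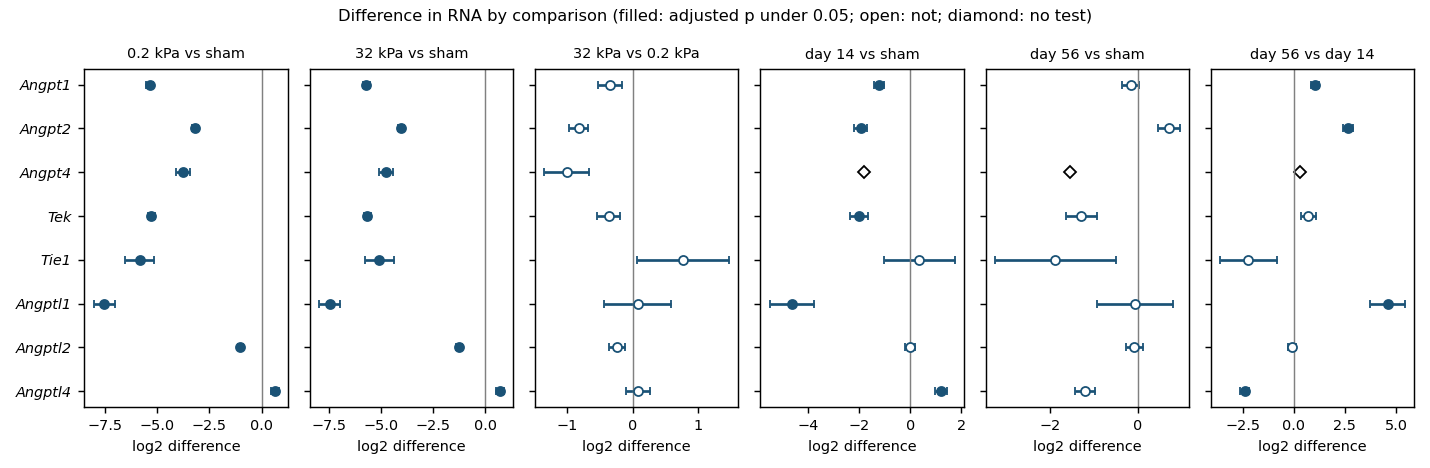
Log2 difference in RNA (first-named group minus second) for the 8 genes in 6 comparisons; bars are SE of limma's fit, filled circles had an adjusted p under 0.05, open circles did not, and diamonds have no test. The horizontal scales differ between panels. Every circle against CD1 sham is filled, the 32 kPa against 0.2 kPa and day 56 against sham panels hold no filled circle, and Angptl1 has the largest negative value at day 14.

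Other cell types moved over the same groups, and their part in these results was not tested. The summed level of 10 leukocyte markers was 567 to 2149 CPM (reads scaled to library size) at day 14 against 236 to 353 in sham cells, with 7 of the 10 genes called higher, and was 185 to 653 at day 56. Over 18 endothelial markers the sum was 233 to 370 CPM at day 14 against 286 to 385 in sham cells, with 2 called higher and 2 lower. Erg (3.45 ± 0.62) and Plvap (1.31 ± 0.24) were the higher ones, and Tmem100 (-1.20 ± 0.18) and Ramp2 (-0.72 ± 0.23) the lower ones. Cdh5, an endothelial marker that was not called, was at 0.304 to 0.888 RPKM at day 14 and 0.179 to 1.02 in sham cells. Tek averaged 7.45 ± 0.87 RPKM at day 14 and 32.6 ± 14.7 in sham cells (SD, n = 4 each). Of 13 pericyte markers 1 was called higher and 4 lower. The 10 fibroblast markers, 3 of them called higher and 5 lower, summed to 83748 to 104515 CPM at day 14 against 37698 to 48186 in sham cells.

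In CD1 cells, 5 days on a gel went with lower RNA of every member but Angptl4 on both stiffnesses, from about 2.03-fold for Angptl2 to 233-fold for Angptl1 by group means on 0.2 kPa, Tie1 left aside. Angpt1 had 137, 115 and 180 reads on 0.2 kPa and 99.5, 126 and 110 on 32 kPa, against 6052, 5584 and 5902 in fresh sham cells. That is 40.6-fold and 52.4-fold lower by group means (-5.36 ± 0.18, adjusted p = 1.12e-09, on 0.2 kPa; -5.71 ± 0.18, adjusted p = 7.08e-10, on 32 kPa). An antisense transcript, Gm17473, shares 737 of the 5205 exon bases of Angpt1.

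Angpt2 was less reduced. It had 249.7, 262 and 229.8 reads on 0.2 kPa and 125, 139 and 153 on 32 kPa, against 2485, 1969 and 2394 in sham cells. The difference from sham was -3.20 ± 0.15 on 0.2 kPa (adjusted p = 1.43e-08) and -4.02 ± 0.15 on 32 kPa (adjusted p = 2.46e-09). The members were chosen with earlier results of these data known, so the Angpt4 tests on the gels may not be independent of that choice. Angpt4 had 74.3, 106 and 72.3 reads on 0.2 kPa and 53.3, 22.9 and 54.8 on 32 kPa. In sham cells it had 1078, 931 and 1447. Its difference was -3.76 ± 0.34 on 0.2 kPa (adjusted p = 2.45e-06) and -4.77 ± 0.34 on 32 kPa (adjusted p = 3.43e-07).

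Tek had 337, 289 and 245 reads on 0.2 kPa and 235, 179 and 262 on 32 kPa, against 12239, 9960 and 11607 in sham cells, so that no gel library came near a fresh one. The difference was -5.28 ± 0.17 on 0.2 kPa (adjusted p = 9.89e-10) and -5.65 ± 0.17 on 32 kPa (adjusted p = 5.79e-10). Tie1 was at 0, 1 and 1 raw reads on 0.2 kPa and 4, 0 and 3 on 32 kPa, against 58, 166 and 130 in sham cells. Its mean over the 6 gel libraries was 1.66 rescaled reads. Its ratio to sham in CPM was 0.0079 on 0.2 kPa (exact 95% interval 0.00095 to 0.029, counting error only) and 0.0245 on 32 kPa (0.0098 to 0.051). In limma it was lower on 0.2 kPa (adjusted p = 2.3e-05) and on 32 kPa (adjusted p = 6.41e-05).

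**Figure D3:**
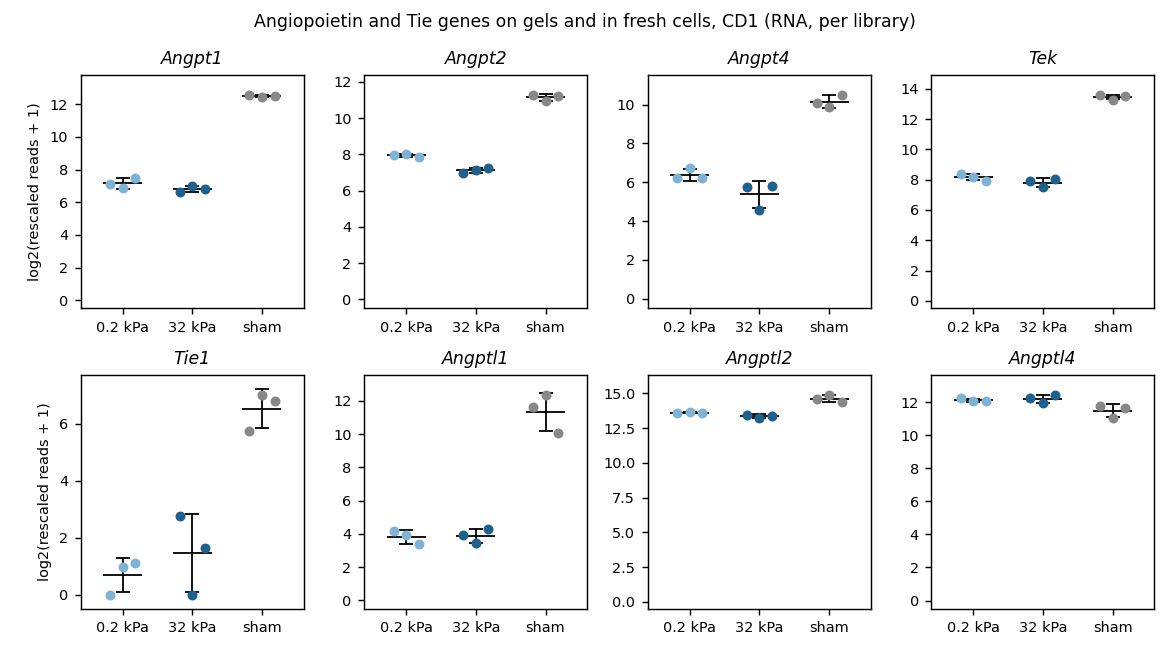
Rescaled RNA reads of the 8 genes in each CD1 library, as log2(reads + 1), on 0.2 kPa gels, on 32 kPa gels and in cells sorted from sham lungs; points are libraries, and lines with bars are means and SD (n = 3). In 7 panels both gel groups lie below sham, and in the Angptl4 panel they lie above it.

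Angptl1 had 16.8, 14.4 and 9.33 reads on 0.2 kPa and 14.4, 9.96 and 18.7 on 32 kPa, against 3184, 5175 and 1098 in sham cells. It was low in every gel library, at 8 to 27 raw reads. It had the largest log2 difference from sham of the 8 genes on both gels (-7.54 ± 0.51, adjusted p = 2.27e-07, on 0.2 kPa; -7.46 ± 0.51, adjusted p = 2.3e-07, on 32 kPa). Sham replicate 2, where it was highest, stood apart in several marker sums. Its 8 smooth muscle genes summed to 589 CPM, against 3059 and 3528 in the other sham libraries. Mesothelial markers summed to 115 CPM there, against 23.3 and 21.9, and epithelial markers to 321, against 106 and 135. Pericyte markers summed to 1234 CPM, against 1882 and 1890, while the fibroblast sum lay between those of the others. Without sham replicate 2 the Angptl1 difference was -7.05 on 0.2 kPa (adjusted p = 7.55e-06) and -6.97 on 32 kPa (adjusted p = 7.53e-06). Without sham replicate 3, the lowest, it was -8.16 on 0.2 kPa and -8.09 on 32 kPa.

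Angptl2 kept the highest level of the members in culture. It had 12216, 13005 and 12652 reads on 0.2 kPa and 11451, 9625 and 10909 on 32 kPa, against 25322, 29668 and 21795 in sham cells, a difference of -1.01 ± 0.12 on 0.2 kPa (adjusted p = 2.42e-05) and -1.26 ± 0.12 on 32 kPa (adjusted p = 3.93e-06). Angptl4 was the 1 member that rose. It had 4845, 4261 and 4388 reads on 0.2 kPa and 4885, 3929 and 5511 on 32 kPa, against 3487, 2123 and 3262 in sham cells. Every gel library lay above every sham library, by 0.64 ± 0.18 on 0.2 kPa (adjusted p = 0.00967) and 0.71 ± 0.18 on 32 kPa (adjusted p = 0.00494).

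Thus 7 members were called lower and 1 higher on each gel. This stands against a table in which 39.2% of 18488 genes were called lower and 31.9% higher on 0.2 kPa, and 41% lower and 32.4% higher on 32 kPa, or 71.1% and 73.4% in either direction. Groups did not overlap for any of the 8 members on either gel, nor for 76.4% of all genes on 0.2 kPa and 73.1% on 32 kPa, so neither a call nor a gap sets the members apart here. The median difference over the 8 members was -4.52 on 0.2 kPa and -4.92 on 32 kPa, where that over all genes was -0.22 and -0.26. The 2 gel comparisons share their sham libraries. Of the 18 endothelial markers, 15 were also called lower on 0.2 kPa and 16 on 32 kPa, with Car4 at 0 on both; Pecam1 was at 0.0449 to 0.0754 RPKM on 0.2 kPa and 0.0464 to 0.0983 on 32 kPa, against 2.33 to 2.58 in sham cells. Fibroblast markers fell as well, 9 of 10 on each gel, and pericyte markers, 11 of 13 on each gel. The part of these cell types in the members' results was not tested.

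Between the gels, limma called 0 of 8 members at 32 kPa against 0.2 kPa (2 at an unadjusted p under 0.05, and 1 in DESeq2). Limma called 0% of 18488 genes in that comparison (1011 at an unadjusted p under 0.05), edgeR called 1 and DESeq2 called 43. The groups did not overlap for 3 members, Angpt2, Angpt4 and Angptl2, all lower on 32 kPa; 9.23% of all genes did not overlap. For Angpt2 the difference was -0.83 ± 0.15 (adjusted p = 0.267); DESeq2 called it (adjusted p = 0.000767), and so did limma without 32 kPa replicate 3 (adjusted p = 0.0202), while over all 16 alternatives the adjusted p ran from 0.000767 to 0.781. For Angpt4 it was -1.01 ± 0.34 (adjusted p = 0.788), and for Angptl2 -0.25 ± 0.12 (adjusted p = 0.788). The other 5 overlapped, with -0.35 ± 0.18 for Angpt1, -0.37 ± 0.17 for Tek, 0.76 ± 0.70 for Tie1, 0.08 ± 0.51 for Angptl1 and 0.07 ± 0.18 for Angptl4.

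Per unit of length the 2 main ligands changed places between CD1 sham cells and the gels, where both were low. Angpt1 averaged 0.61 RPKM on 0.2 kPa and 0.45 on 32 kPa, against 21.4 in CD1 sham cells. For Angpt2 the means were 1.47 and 0.79, against 11.8. The log2 ratio of Angpt2 to Angpt1, both in reads per kb, was 1.37, 1.68 and 0.85 on 0.2 kPa and 0.83, 0.65 and 0.97 on 32 kPa, against -0.79, -1.01 and -0.81 in CD1 sham cells. So Angpt2 exceeded Angpt1 in all 6 gel libraries and in none of the 3 fresh ones. In C57BL/6 it was -0.75, 0.12, -1.27 and -1.14 in sham cells, -1.41, -1.54, -1.96 and -1.09 at day 14, and -0.15, 0.21, 0.70 and -0.34 at day 56. Day 56 libraries were all above day 14 libraries, and both groups overlapped sham. These ratios carry no test.

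**Figure D4:**
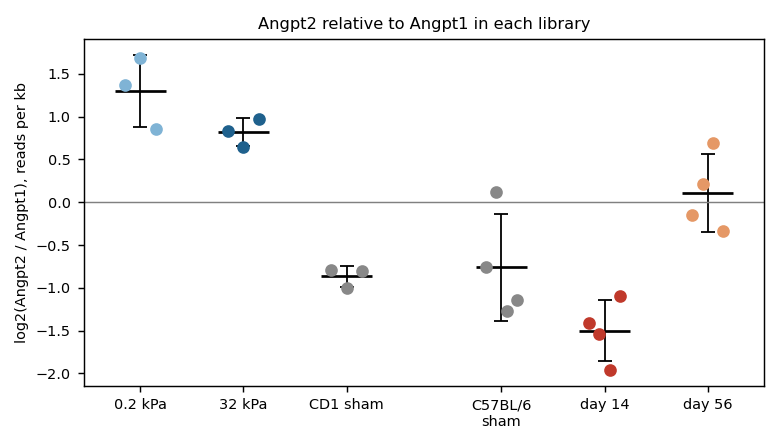
Log2 ratio of Angpt2 to Angpt1 reads per kb in each library; points are libraries, and lines with bars are means and SD (n = 3 for the CD1 groups, n = 4 for the C57BL/6 groups). Gel libraries lie between 0.65 and 1.68, CD1 sham libraries between -1.01 and -0.79, and day 14 libraries between -1.96 and -1.09.

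The order of levels among the members, in RPKM, also differed by condition. In C57BL/6 sham cells Angptl2 led at 81.0 ± 14.01, followed by Angptl4 at 56.1 ± 14.3 and Angpt1 at 42.0 ± 6.4. Angpt4 at 33.3 ± 5.8, Tek at 32.6 ± 14.7 and Angpt2 at 25.5 ± 8.0 lay within each other's spread, and Angptl1 at 5.33 ± 5.76 and Tie1 at 1.21 ± 0.72 were lowest (SD, n = 4). At day 14 Angptl4 led at 128 ± 40.1 and Angptl1 was last at 0.19 ± 0.19. At day 56 Angptl2 (82.3 ± 20.5) was again first, Angpt2 (42.7 ± 5.9) and Angpt1 (40.1 ± 8.3) followed within their spread, and Angpt4 (11.9 ± 0.4) and Tek (14.6 ± 7.4) were close. In CD1 sham cells Tek at 45.7 ± 5.1 was second to Angptl2 at 77.7 ± 11.9 (SD, n = 3). On the gels Angptl2 (44.0 ± 1.9 on 0.2 kPa, 35.3 ± 3.2 on 32 kPa) and Angptl4 (27.8 ± 1.7 and 28.1 ± 5.3) led by far, and the next highest group mean was 1.47 for Angpt2 on 0.2 kPa. Levels use merged exons of GENCODE M21, while the labels do not name the authors' own gene models.

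In the chromatin data, regions of the members opened and closed at day 14 in near-equal number. The authors' deposited table for day 14 against sham assigned 35 of its 25518 differentially accessible regions to 7 of the 8 genes, 17 more and 18 less accessible, where 67.9% of the whole list was more accessible. The authors' deposited table for day 56 against day 14 held 30 regions of the members, 16 more and 14 less accessible, where 26.3% of its 21413 regions were more accessible. That for day 56 against sham held 3, all more accessible, where 60.1% of its 1510 regions were. Both day 14 comparisons share the day 14 libraries. The values are the authors' log2 differences between groups and their mean log2 read concentrations, with no spread per library, and a region that is absent from a list was not shown to be unchanged. No region of Angptl4 is on the authors' deposited tables of the bleomycin comparisons.

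Around Angpt1 (chr15:42424723-42676977, minus strand, GRCm38), the authors' deposited table gave 8 of 12 regions as less accessible at day 14, among them 4 in introns. The largest of these losses, in intron 3, was -2.04 (FDR 1.52e-08), and the overlapping region in the authors' deposited table for day 56 against day 14 was 2.23. An intergenic region 306727 bases downstream of the start site went the other way. The authors' deposited table listed the Angpt1 region printed above at a concentration of 5.20 at day 14 against 1.58 in sham cells, a gain of 3.61 (FDR 1.21e-11). The authors' deposited table for day 56 against day 14 had it at -3.19 (FDR 1.63e-09). Over the 13 Angpt1 regions in that list, 10 were more accessible at day 56, the direction of the RNA.

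Angpt2 (chr8:18690263-18741562, minus strand) lies within the span of Mcph1 on the opposite strand, with 0 exon bases shared. Of its 4 regions in the authors' deposited table, 3 were more accessible at day 14, when its RNA was lower. The intron 5 region printed above had a concentration of 6.10 at day 14 against 3.52 in sham cells (2.59, FDR 5.14e-13) and was -3.15 at day 56 against day 14 (FDR 1.52e-14) in the authors' deposited table. It was the 1 less accessible region of Angpt2 in that list. The other 3 of the 4 were more accessible at day 56, the direction of the RNA.

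For Angpt4 (chr2:151911210-151945337, plus strand), the authors' deposited table for day 14 showed loss at the promoter and in exon 7 and gain in intron 1 and upstream. The promoter region, chr2:151910274-151911251, was -1.10 (FDR 7.89e-16), and the exon 7 region, chr2:151938433-151939534, had a concentration of 9.71 at day 14 against 11.07 in sham cells (-1.36, FDR 7.88e-31) in the authors' deposited table. The intron 1 region printed above was 2.28 at day 14 (FDR 1.25e-12) and -2.71 at day 56 against day 14 (FDR 9.45e-10) in the authors' deposited table. Neither the promoter nor the exon 7 region appears in the authors' deposited tables for day 56, against sham or against day 14.

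Angptl1 and Angptl2 differed in the direction of most of their regions at day 14. All 4 Angptl1 regions, at -57843 to -42631 bases from its start, were less accessible (-1.75 to -1.15), and both of its regions in the day 56 against day 14 list were more accessible (1.09 and 1.51), by the authors' deposited tables. Of 9 Angptl2 regions, 7 were more accessible at day 14 in the authors' deposited table, up to 2.92 (FDR 1e-17) for the region printed above, while Angptl2 RNA did not pass the test. The authors' deposited table listed 1 region each for the receptors: Tek lost -1.25 at a region 584 bases from its start (FDR 0.000296), and Tie1 gained 2.49 at the region printed above (FDR 1.53e-09), which was -2.22 at day 56 against day 14 (FDR 2.07e-09).

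**Figure D5:**
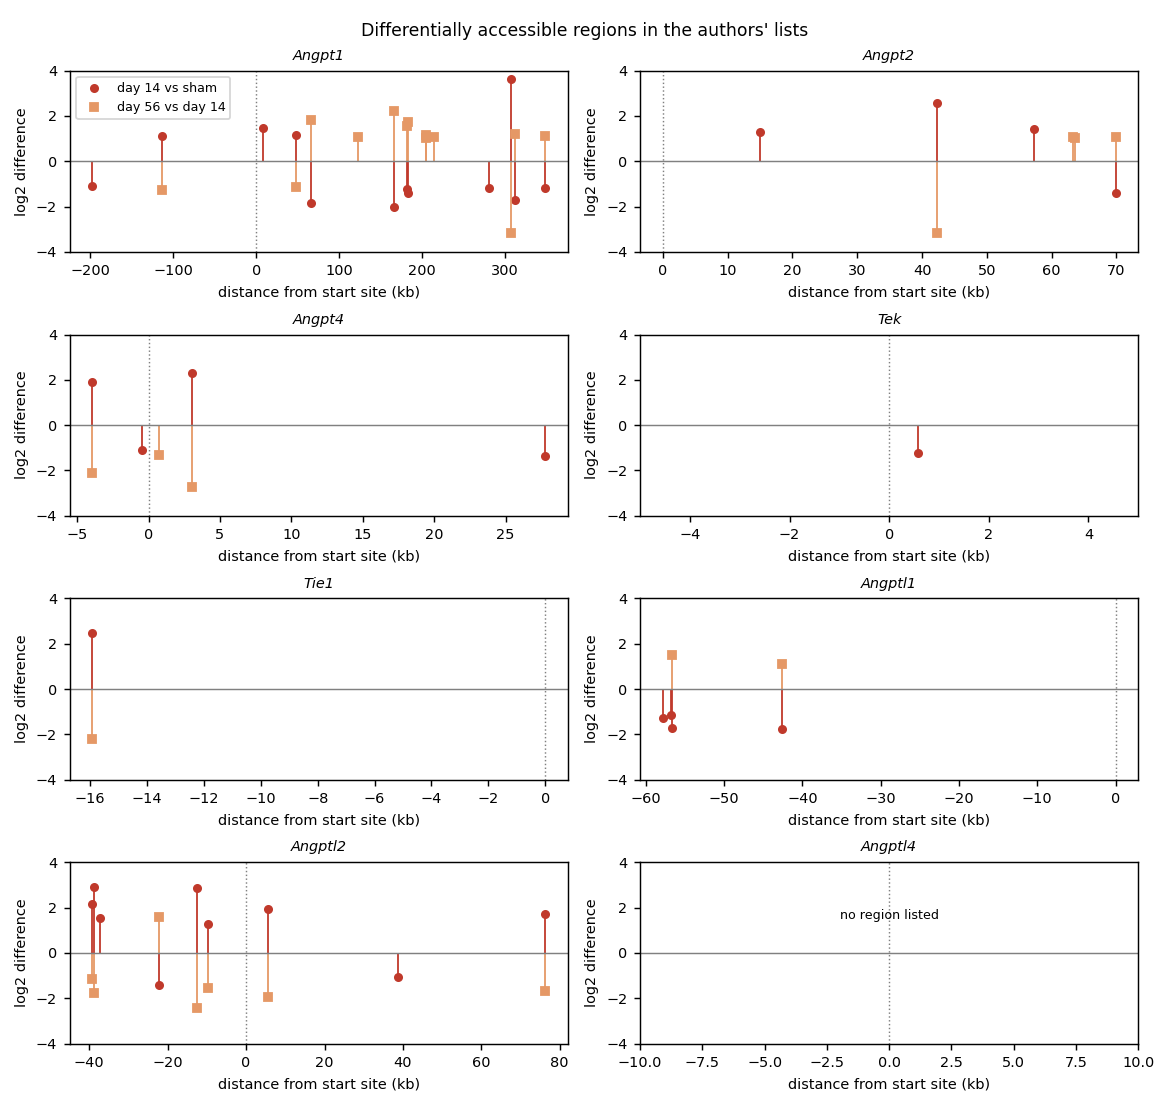
Regions that the authors' lists assign to each member, by distance from its start site in kb (horizontal, positive is downstream, with a scale of its own in each panel) and log2 difference in accessibility (vertical), for day 14 against sham (circles) and day 56 against day 14 (squares). Angpt1 shows 8 losses and 4 gains at day 14, Angptl1 shows 4 losses, Angptl2 shows 7 gains and 2 losses, and Angptl4 has no region.

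On the gels, most listed regions of the members were less accessible, as were most listed regions overall. The lists of each gel against sham carry no gene names, so their regions were assigned to the nearest RefSeq start site. This rule gave the same member for all 35 day 14 regions that carry a name. The authors' deposited table for 0.2 kPa against sham then held 34 member regions, 29 of them less accessible, where 87.9% of 47475 regions were. That for 32 kPa against sham held 46, with 28 less accessible, where 70.4% of 58510 were. The lists were cut differently, with a smallest absolute log2 difference of 1 for 0.2 kPa and 0.31 for 32 kPa. Their counts and shares are therefore not comparable between gels. Within 1 kb of the start site, the authors' deposited tables gave Angpt1 as -2.58 on 0.2 kPa and -1.76 on 32 kPa, Tek as -2.35 and -1.88, and Angptl2 as -2.92 and -2.46. Angpt4 had both directions there in the authors' deposited tables, -2.65 and -2.91 at -515 bases from the start but 1.44 and 1.61 at 731 and 730 bases. Angptl4, whose RNA rose, also lost accessibility at -37 bases from its start, with -2.76 on 0.2 kPa and -1.73 on 32 kPa in the authors' deposited tables, and had a gain of 3.35 at -7357 bases on 32 kPa. All 3 Angptl1 regions were less accessible on both gels, from -3.97 to -1.99, in the authors' deposited tables. The region over exon 7 of Angpt4, which the day 14 list also has as lower, was -4.35 on 0.2 kPa and -4.50 on 32 kPa in the authors' deposited tables.

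Several injury-gained regions were also gained on stiff gels. Of the 46 member regions on 32 kPa and the 35 at day 14, each against its own sham, 28.3% and 34.3% overlapped by at least 1 base, where 15.8% of all 32 kPa regions and 35.2% of all day 14 regions did. All 14 overlapping pairs had the same direction in the authors' deposited tables; over all regions 94.0% of 9275 overlapping pairs did, so this share is near that of the genome. For 0.2 kPa it was 20.6% of 34 and 20% of 35, where 12.6% and 22.8% of all regions overlapped. There, 8 of 8 pairs had the same direction, against 90.6% of 6025 pairs over all regions. The gel lists differ in their smallest log2 difference, as given above, so these shares are not comparable between gels. The Angpt1 intergenic region was 3.37 on 32 kPa against sham (FDR 1.46e-13) in the authors' deposited table, and 1.05 on 32 kPa against 0.2 kPa (FDR 0.00381). The Angpt2 intron 5 region was 2.21 on 32 kPa and 1.52 on 0.2 kPa against sham in the authors' deposited tables. That for 32 kPa against 0.2 kPa held 4 member regions, 3 of Angpt1 and 1 of Angpt2, all more accessible on 32 kPa, where 99.7% of its 2558 regions were.

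Of 16 partners and effectors of TIE signalling, all tested, 5 were called higher and 1 lower at day 14 against sham, where 9.54% and 6.35% of all genes were. Those with the largest differences were Dok2, an adaptor of TIE2 also found in leukocytes (4.10 ± 1.29, adjusted p = 0.0444), and Itga5, an integrin subunit of the fibronectin receptor (2.69 ± 0.26, adjusted p = 1.65e-05), and the lower one was Foxo1, a transcription factor that TIE2 signalling restrains (-1.04 ± 0.28, adjusted p = 0.023). The list's median was 0.32, against 0.05 over all genes. From the same list, 7 of the 16 were called lower and none higher at day 56 against day 14, where 8.48% and 5.7% of all genes were. Dok2 (-4.12 ± 1.29, adjusted p = 0.047) and Itga5 (-2.98 ± 0.26) fell the most. The list's median there was -0.48, against -0.08 over all genes. On 0.2 kPa 7 were higher and 8 lower, and on 32 kPa 7 and 9. With 71.1% and 73.4% of all genes called on the gels, such counts do not set this list or the next ones apart. Ptprb, which encodes the phosphatase VE-PTP that opposes TIE2, was higher on both gels (1.74 ± 0.15 and 1.82 ± 0.15), and Svep1, an extracellular protein that binds TIE1, was lower (-3.83 ± 0.17 and -4.34 ± 0.17).

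Of the 10 genes of the parallel VEGF system, Flt1, a VEGF receptor, was the 1 called at day 14 against sham (1.97 ± 0.59, adjusted p = 0.0352), and it was lower at day 56 against day 14 (-2.47 ± 0.59, adjusted p = 0.0122). On 0.2 kPa 5 of the 10 were higher and 3 lower, and on 32 kPa 6 and 3; the receptor gene Kdr (-2.62 ± 0.31 and -2.76 ± 0.31) and the ligand gene Vegfd (-2.52 ± 0.11 and -2.53 ± 0.11) fell the most. Around ANGPTL4, 14 genes of the lipoprotein lipase axis and of PPAR targets were tested. At day 14 against sham, 2 were higher, the fatty acid carrier gene Fabp4 (2.56 ± 0.45, adjusted p = 0.0015) and Lpl, which encodes the lipase itself (1.40 ± 0.22, adjusted p = 0.000795), and 2 were lower, among them Acadm of fatty acid oxidation (-0.75 ± 0.15, adjusted p = 0.00293). On 0.2 kPa 5 were higher, led by Lipg (2.84 ± 0.24) and the lipid droplet gene Plin2 (2.22 ± 0.12), and 8 lower, among them the fatty acid transporter gene Cd36 (-5.21 ± 0.77); on 32 kPa it was 4 and 8. Of the other angiopoietin-like genes, Angptl7 was lower at day 14 (-1.62 ± 0.33, adjusted p = 0.00389) and on both gels (-6.61 ± 0.87 and -7.24 ± 0.87).

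Over the 12 C57BL/6 RNA libraries, the genes whose log2 values most resembled each member among 16134 genes with a mean of at least 10 reads are given as a description, with libraries of a group sharing its shifts. For Angpt1 they were Pja1, Gprasp2 and Syp (Pearson r 0.957, 0.957 and 0.956), and for Angpt2 Tmem204, Fhl1 and Sdpr (0.986, 0.984 and 0.982). Angpt4 was nearest to Gm2a (0.910), Chrdl1 (0.896) and Rasgef1b (0.881), and Tek to Akap12 (0.972), Spg20 (0.966) and Mamld1 (0.962). Tie1 was nearest to Lck (0.988), a lymphocyte kinase gene, followed by Hcar2 and Wnk4 (0.966 and 0.962). Tie1 had 0 reads in day 56 replicate 2 and 66.1 to 553 rescaled reads in all other libraries. On the log2 scale that 1 library lies far from the rest, so it may largely set these correlations. For Angptl1 they were Cdon (0.938), LOC108167550 (0.937) and Cmpk2 (0.935), for Angptl2 Col15a1 (0.928), Polg (0.896) and Dopey2 (0.892), and for Angptl4 Sfxn1 (0.948), Dpp3 (0.938) and Map4k4 (0.932).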

How the data were processed

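RNA-seq (21 libraries) and ATAC-seq (21 libraries) were used as deposited. The submitters' processing notes list, for mm10 and without versions, HISAT2, featureCounts and DESeq2, and also MACS2, DiffBind and HOMER, among others. The RNA tables hold the authors' normalized signal per gene. Whole reads were recovered for all values within a tolerance of 0.05, and reads were rescaled by median of ratios within each table. Genes with a mean of at least 1 were tested with limma 3.58.1 (trend) in R 4.3.3 on log2(value + 1), with 1 fit per table, no covariate, Benjamini-Hochberg adjustment and a threshold of 0.05. edgeR 4.0.16 and DESeq2 1.42.0 on the recovered reads were alternatives. For CD1, 855 rows without a symbol (2.13% to 4.77% of reads) were left out. The ATAC tables hold, per the file headers, log2 concentrations and log2 fold changes with p-values and FDR that the authors deposited for regions past their thresholds, with no values per library. The tables of each gel against sham carry no gene name, and nearest start sites from RefSeq were used there, a choice made after seeing the data. Scripts were tested on simulated data. The members and gene lists were chosen with earlier results of these data known. Named were all 8 members, the 2 genes with the largest called difference in each direction per pathway list, and the 3 genes most correlated with each member. One gene that this rule names is not reported here. Alternatives changed the scaling, pseudocount, filter, tool, libraries and distance limit.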

Additional observations from a re-analysis of the deposited data

Results flagged for a closer look

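For 4 members the difference from sham at day 56 was not the same as that at day 14. Both effects are set against the same sham libraries, so limma's comparison of day 56 with day 14, adjusted over all genes, is the test of that difference. Day 56 exceeded day 14 by 1.05 for Angpt1, by 2.65 for Angpt2 and by 4.58 for Angptl1 on the log2 scale, and Angptl4 was at -2.41. All 4 day 56 libraries lay beyond all 4 day 14 libraries for each of these genes. Among 24 sets of 4 libraries (8 genes in 3 groups), 0 held a library far enough from the others to stand out by Dixon's criterion.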

How the results depend on the processing

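The counts of called members on 0.2 kPa (8), on 32 kPa (8), at day 14 against sham (5) and at day 56 against day 14 (4) were the same when any library was left out, at 8 to 8, 8 to 8, 5 to 5 and 4 to 4. For 32 kPa against 0.2 kPa the count was 0 in limma and 1 in DESeq2 (Angpt2), and 0 to 1 when leaving out a library, with 1 without 32 kPa replicate 3. For day 56 against sham it was 0 in limma and 1 in DESeq2 (Angptl4), and 0 to 0 leaving out a library. Limiting regions to 100 kb of a start site left 2 of 4 for 32 kPa against 0.2 kPa and 19 of 30 for day 56 against day 14. The cause of these changes was not tested, except that the distance limit removes regions by construction.

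Signs turned for differences near 0 that did not pass. At day 56 against sham, scaling by total reads gave 0.026 for Angptl1 and 0.0015 for Angptl2, and leaving out the 4 libraries with fewer genes detected gave 0.14 for Angptl2. Between day 56 and day 14, Angptl2 was 0.052 by total reads and 0.15 without those libraries. Leaving out a library gave -0.15 to 0.30 for Angptl1 and -0.036 to 0.21 for Angptl4 at 32 kPa against 0.2 kPa, -0.14 to 0.68 for Tie1 and -0.089 to 0.077 for Angptl2 at day 14 against sham, -3.02 to 0.019 for Tie1, -0.71 to 0.64 for Angptl1 and -0.22 to 0.12 for Angptl2 at day 56 against sham, and -0.21 to 0.13 for Angptl2 at day 56 against day 14.

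Counts over all genes moved more. For 32 kPa against 0.2 kPa limma called 0, DESeq2 43, edgeR 1, and limma 2 with a mean of at least 10, 1 with a pseudocount of 5, 4 scaled by total reads, 2 as deposited and 0 to 846 leaving out a library, 846 without 32 kPa replicate 3. At day 14 against sham 3359 genes were called, and 5283 without the 4 libraries. For day 56 against day 14, 2996 were called, 4745 without the 4 libraries, 1923 with Xist presence as a covariate and 1862 to 3346 leaving out a library, 1862 without day 14 replicate 2. Scaled by total reads that comparison had 1576 higher and 1394 lower, and the median of all genes was -0.27 as deposited, -0.08 rescaled and 0.03 by total reads. Against sham, day 56 had 1 call, 80 by DESeq2, 11 with a pseudocount of 5, 11 by total reads, 4 as deposited, 0 with Xist presence, 0 with only those groups fitted, 0 with the block and 0 to 3 leaving out a library.

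Replicate numbers did not pair the samples (correlations of same-numbered deviations -0.159 to 0.068 in CD1 and -0.158 to 0.116 in C57BL/6). With the replicate block the member counts were 8, 8, 0, 5, 0 and 4, and 12829, 13286, 0, 2821, 0 and 2430 genes were called. Low read counts of the gene itself limit Tie1 and Angptl1. Angptl1 had 3 to 55 reads per library at day 14 and 8 to 27 on the gels.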
